A study of Homo sapiens with 8 samples.

Results

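The genes described here carry glucose through glycolysis, into lactate, the pyruvate dehydrogenase complex or the pentose phosphate pathway, together with genes known to answer to low oxygen. They were listed by name for their place in these pathways, 35 in all, by a rule that uses no measured value, although earlier results of these data were known when the list was made. Each gene was read from the probe set that carries its symbol alone and has the highest mean over the 8 arrays, which gave 32 of the 35 genes among 19775 genes measured this way. The other 3, the lactate transporters SLC16A1 and SLC16A3 and the carbonic anhydrase CA9, had no such named probe set and are not analysed here.

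The cells were NCI-H1975, an established human lung adenocarcinoma line that carries mutant EGFR and was grown in medium with 10% fetal bovine serum and kanamycin. They received vehicle (DMSO), 10 nM osimertinib, 1 µM alpelisib or both drugs, each without and with 2 mM L-histidinol, for 24 h. Osimertinib inhibits mutant EGFR, alpelisib inhibits the alpha catalytic subunit of PI3-kinase, and L-histidinol is a histidine analogue that blocks the charging of histidine tRNA. Each of the 8 conditions had 1 array, so every test below compares the average of several arrays and takes its error from how far the arrays depart from an additive model of drug treatment and L-histidinol. The p-values therefore measure only the spread among these arrays of 1 line, and nothing in the labels says that they came from repeated cultures.

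Glycolysis turns glucose into pyruvate. Hexokinase traps the sugar, phosphofructokinase is the main committed step and is tuned by the bifunctional PFKFB enzymes, and lactate dehydrogenase reduces the pyruvate to lactate. Pyruvate can instead enter the mitochondrial tricarboxylic acid cycle through pyruvate dehydrogenase, which the PDK kinases switch off and the PDP phosphatases switch on. The pentose phosphate pathway branches off early to make NADPH and ribose. Many of these genes are textbook targets of the hypoxia-inducible factors, which bind a core of ACGTG in DNA, and of MYC, which binds the E-box CACGTG. EGFR and PI3-kinase signalling is known to raise glycolysis in lung cancer cells.

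Values are RMA-summarised probe intensities, used here on the log2 scale. The 32 genes were all well expressed by the mark used here, a mean log2 intensity of at least 5, from 5.96 for EGLN3 to 13.38 for GAPDH. The median intensity of an array ranged from 21.8 to 22.4. The ratio of the 3′ to the 5′ probe set of ACTB, a sign of RNA quality, was 1.04 to 1.07 on the 4 arrays without L-histidinol and 1.10 to 1.15 on the 4 with it, and the GAPDH ratio was 0.966 to 1.01. Epithelial and lung markers were present, from a mean log2 of 8.53 for NKX2-1 to 12.47 for KRT18. Markers of other cell types ranged in mean log2 from 2.82 for PTPRC to 5.79 for HBB over 4 blood markers, and from 2.71 for CDH5 to 5.18 for PECAM1 over 3 endothelial markers. The 5 fibroblast markers were LUM at 2.17, COL3A1 at 2.83, DCN at 5, PDGFRB at 5.38 and the collagen gene COL1A1 at 9.14, and the summed intensity of the 5 fibroblast markers was 456 with vehicle, 520 with alpelisib, 1085 with osimertinib and 1187 with both. With L-histidinol the same sums were 358, 477, 767 and 876. Of the 5, 3 rose with osimertinib and 2 with both drugs by the test described below. The epithelial marker sum was 20050 to 24330 without L-histidinol and 17210 to 20640 with it. What these shifts contribute to the values below was not tested.

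Most of the glycolytic chain fell when both drugs were given. Of the 32 genes, 17 fell and 5 rose against vehicle, the largest falls being HK2, GPI and PFKFB3 and the largest rises PDK3, PFKFB2 and PDP1. Here "fell" and "rose" mean an adjusted p below 0.05 by limma, with Benjamini-Hochberg adjustment over the 19775 genes. Over all of those genes, 19.2% fell and 21.4% rose with both drugs. The median of the 32 was -0.27 on the log2 scale, against -0.001 for all genes. Well expressed genes are called more often, and among the 11627 genes with a mean log2 of at least 5 the shares were 29.9% lower and 32% higher. The count of 22 called genes was 22 or 23 with any single array left out.

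Osimertinib alone lowered 12 of the 32 and raised 6, where 14% of all genes fell and 16.4% rose (median -0.11, all genes 0.01). Among the 11627 genes with a mean log2 of at least 5, 22.4% fell and 25.3% rose, so the 18.8% of the 32 that rose was below the share of such genes. Without the osimertinib array 10 of the 32 were called, and the calls of SLC2A1, SLC2A3, HK1, GPI, PFKM, ALDOC, PGK1 and PGAM1 were lost, while calls over all genes went from 6011 to 3755. Without the osimertinib array with L-histidinol, 11 of the 32 and 4030 of all genes were called. Alpelisib alone lowered 3, HK2, LDHB and EGLN3, and raised PFKFB2 and PDP1, against 4.38% and 7.08% of all genes and 7.16% and 11.4% of those with a mean log2 of at least 5. A further 12 genes reached an unadjusted p below 0.05 with alpelisib, and 23 of the 32 had a negative value (median -0.11, all genes -0.002). This count depended on single arrays: it ran from 0 of 32 with the alpelisib array with L-histidinol left out to 10 with either combination array left out. Calls over all genes moved with it, from 2267 to 175 in the first case and to 3009 and 3006 in the others. Each array was also centred on its median as an alternative. That put the median of all genes at -0.09 for osimertinib, -0.08 for alpelisib and -0.13 for both drugs. The calls became more one-sided, with 2289 genes higher and 4123 lower for osimertinib against 3246 and 2765 as measured. For alpelisib the split became 953 and 2000 against 1401 and 866, and for both drugs 3178 and 5516 against 4233 and 3800. The genes described here then fell in 16 cases with osimertinib, 14 with alpelisib and 21 with both drugs, and rose in 4, 1 and 5.

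L-histidinol lowered 14 of the 32 genes and raised 4, averaged over its 4 pairs of arrays. Over all genes 9.17% fell and 11.4% rose (median -0.01, against -0.12 for the 32), and 14.1% fell and 18.2% rose among those with a mean log2 of at least 5. All 18 genes called had the same sign in all 4 pairs, but the calls were made on these same pairs. In the vehicle pair the difference was only -0.001 for GPI and 0.045 for PFKM. Lower glycolysis gave 6 of the 14 falls and the phosphofructokinase group 4. The ACTB ratio given above differed between the same 2 sets of arrays, and its part in these values was not tested. Without the alpelisib array, or without its L-histidinol partner, 9 of the 32 passed the test, and the calls of GPI, PFKL, PFKM, PFKP, PFKFB4, ALDOA, PKM, LDHA and LDHB were lost. Calls over all genes went from 4069 to 2403 and 2389.

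**Figure D1:**
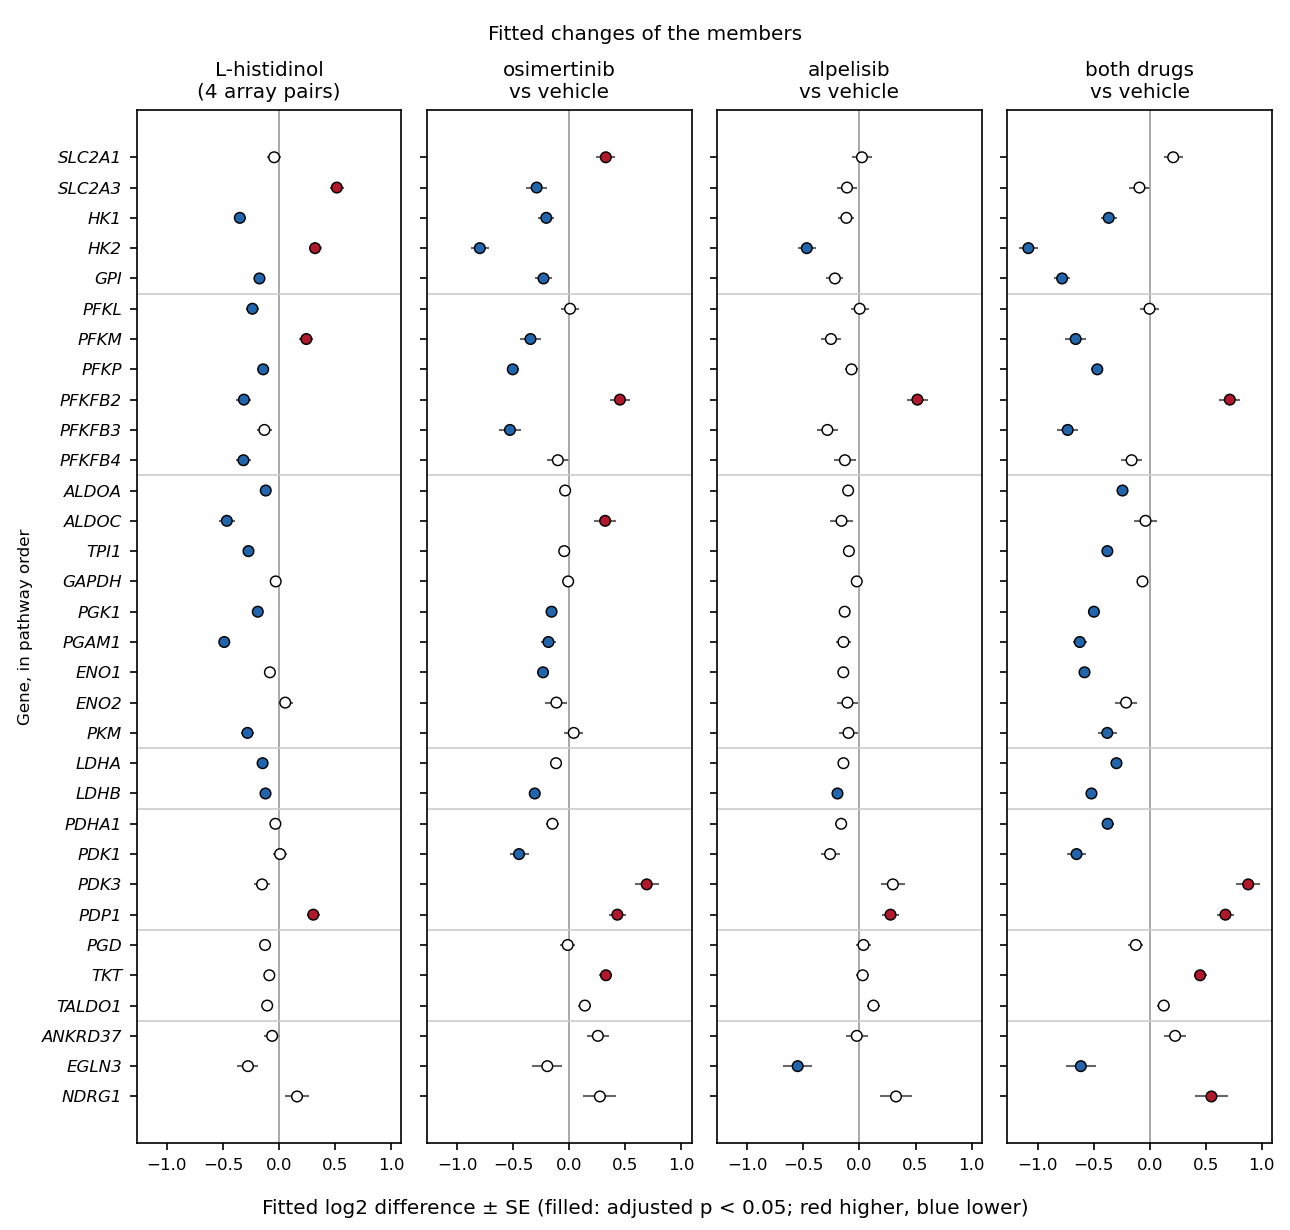
Fitted log2 difference ± SE for each of the 32 genes (rows, in pathway order) with L-histidinol and with each drug treatment against vehicle. Filled points have an adjusted p below 0.05, red higher and blue lower. With both drugs 17 points are blue and 5 red, and only 5 points are filled for alpelisib.

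**Figure D2:**
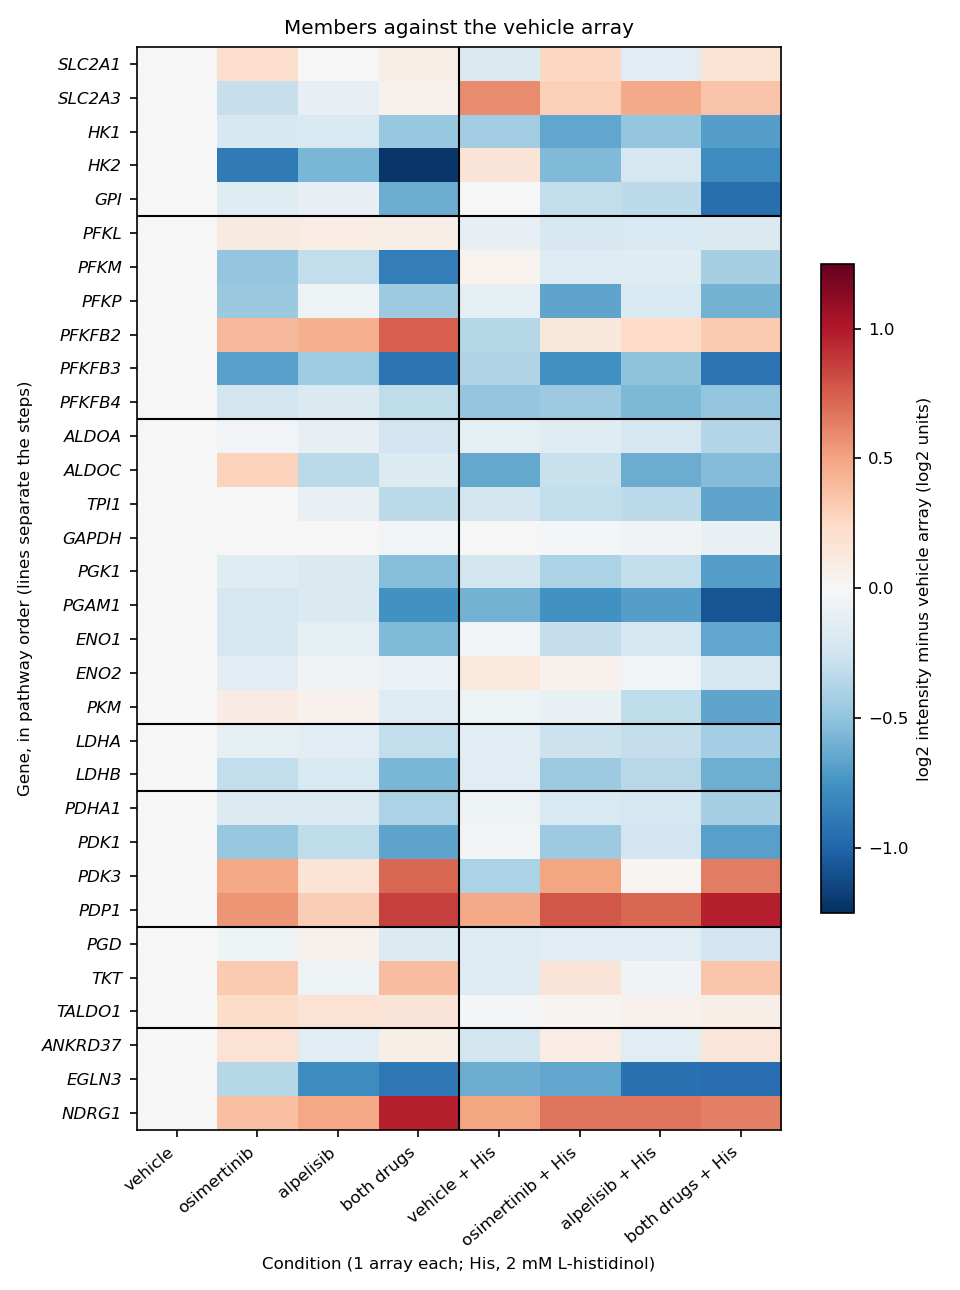
Log2 intensity of each gene on each of the 8 arrays minus its value on the vehicle array without L-histidinol. Blue is lower and red higher, horizontal lines separate the pathway steps and the vertical line separates the arrays with L-histidinol. HK2 is darkest with both drugs and no L-histidinol, and GAPDH stays near white on every array.

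Promoter sequence from RefSeq (GRCh38.p14), 250 bases before to 50 after the annotated start, was matched by symbol and used for 28 of the 32 genes. SLC2A3, PFKFB2, PDP1 and NDRG1 were not among the 28, and PFKFB2, PDP1 and NDRG1 rose with both drugs. The chromosome that carries PDP1 and NDRG1 was left out for the 32 genes but kept for the genes and windows they are compared with. The shares below therefore do not come from like sets. The letters ACGTG were found on either strand in at least 1 window of 16 of the 28 (57.1%), against 28.8% of 15384 genes on the arrays that have a window. CACGTG, each copy of which also contains ACGTG on both strands, was in 7 of the 28 (25%) against 10.9%. Counted by window, as a gene can have several, the shares were 40% of 50 windows against 21.4% of 35093 for ACGTG and 14% against 7.26% for CACGTG. The windows were also richer in G and C, with a median of 69.2% over the 28 genes and 62.7% over the 15384. A match is a stretch of letters and not a measured binding site. A window with a match is shown for PGK1, LDHA, PDK1 and HK2, which fell with both drugs, and for PDK3, which rose with them. Windows without a match are not shown, such as those of PGAM1, ENO1 and LDHB, which also fell. Capitals mark ACGTG, its reverse complement CACGT, or CACGTG. All 5 windows read 5′ to 3′ on the plus strand, which is the strand of each gene.
HK2, chr2:74834920-74835219: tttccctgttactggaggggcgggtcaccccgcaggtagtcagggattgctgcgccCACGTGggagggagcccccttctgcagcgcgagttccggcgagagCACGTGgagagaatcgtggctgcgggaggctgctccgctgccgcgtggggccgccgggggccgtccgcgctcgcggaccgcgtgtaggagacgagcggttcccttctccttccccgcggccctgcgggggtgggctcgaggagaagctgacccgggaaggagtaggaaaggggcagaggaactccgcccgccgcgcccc
PGK1, chrX:78103998-78104297: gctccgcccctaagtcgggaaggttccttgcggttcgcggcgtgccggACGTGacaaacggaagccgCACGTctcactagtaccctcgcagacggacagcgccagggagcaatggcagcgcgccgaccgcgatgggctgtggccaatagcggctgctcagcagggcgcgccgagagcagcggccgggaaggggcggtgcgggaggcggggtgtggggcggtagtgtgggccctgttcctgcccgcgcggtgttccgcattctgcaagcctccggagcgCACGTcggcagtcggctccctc
LDHA, chr11:18394313-18394612: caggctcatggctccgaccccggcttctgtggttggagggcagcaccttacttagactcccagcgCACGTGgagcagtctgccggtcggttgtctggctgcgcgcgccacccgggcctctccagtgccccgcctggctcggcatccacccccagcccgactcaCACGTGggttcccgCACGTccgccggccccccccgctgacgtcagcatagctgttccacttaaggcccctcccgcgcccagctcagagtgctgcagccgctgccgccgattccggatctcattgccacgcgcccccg
PDK1, chr2:172555840-172556139: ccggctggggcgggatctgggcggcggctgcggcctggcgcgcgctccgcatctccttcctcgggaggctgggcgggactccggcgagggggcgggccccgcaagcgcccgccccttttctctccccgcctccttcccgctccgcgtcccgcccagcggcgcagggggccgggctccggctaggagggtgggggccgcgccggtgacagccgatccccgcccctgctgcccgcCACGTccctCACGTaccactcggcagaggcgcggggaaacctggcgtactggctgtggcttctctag
PDK3, chrX:24465036-24465335: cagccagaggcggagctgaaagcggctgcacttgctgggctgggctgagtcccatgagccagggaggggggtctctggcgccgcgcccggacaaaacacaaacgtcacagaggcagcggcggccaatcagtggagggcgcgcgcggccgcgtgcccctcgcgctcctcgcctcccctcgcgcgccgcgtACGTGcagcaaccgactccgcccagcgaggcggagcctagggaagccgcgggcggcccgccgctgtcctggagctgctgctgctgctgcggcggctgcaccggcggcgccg
PGK1 and LDHA had 3 separate matches each, PDK1 and HK2 2 each and PDK3 1. The other window of HK2 held 2 more, while LDHA and PDK1 each had another window without a match. The HK2 matches shown and 2 of the 3 in LDHA were full CACGTG. The letters were also in at least 1 window of GPI, PFKM, PFKP, PFKFB3, ALDOA and TPI1, which fell with both drugs. The same held for GAPDH, ENO2, PGD, ALDOC and ANKRD37, which did not pass the test there. They were in none of the windows of HK1, PGAM1, ENO1, PKM, LDHB, PDHA1 and EGLN3, which also fell. Nor were they in those of TKT, which rose, or of SLC2A1, PFKL, PFKFB4 and TALDO1, which did not pass the test there. Whether the letters go with the falls was not tested.

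At the entry of glucose, the hexokinase HK2 had the largest fall of all 32 genes. HK2 measured 476 on the vehicle array, 321 with alpelisib, 258 with osimertinib and 204 with both drugs. With L-histidinol the HK2 values in the same order were 532, 411, 324 and 277. The order of treatments was the same in both sets, and each L-histidinol array was above its partner. HK2 fell by 1.08 ± 0.08 (SE) on the log2 scale with both drugs (2.12-fold, adjusted p = 1.09e-06), by 0.80 with osimertinib and by 0.47 with alpelisib, and rose by 0.32 ± 0.06 with L-histidinol (adjusted p = 0.00263). Its other 2 probe sets gave -0.95 and -1.04 for both drugs, but only -0.17 and -0.04 for alpelisib, and the mean over its probe sets ended the alpelisib call (-0.23, adjusted p = 0.146).

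HK1, the widely expressed hexokinase, moved with L-histidinol in the other direction. HK1 measured 1549 with vehicle, 1359 with alpelisib, 1352 with osimertinib and 1116 with both, and 1146, 1111, 987 and 958 with L-histidinol. It fell by 0.35 ± 0.05 with L-histidinol (adjusted p = 0.000659) and by 0.37 ± 0.07 with both drugs (adjusted p = 0.00112). Its fall of 0.21 with osimertinib (adjusted p = 0.0444) was lost without the vehicle array without L-histidinol, without any 1 of the osimertinib and alpelisib arrays, and under quantile normalization (adjusted p = 0.0531). GPI, which isomerises glucose 6-phosphate, measured 1432, 1331, 1285 and 932 in the same order, and 1432, 1137, 1159 and 746 with L-histidinol. The combination arrays of GPI were the lowest in each set, and it fell by 0.78 ± 0.08 with both drugs (adjusted p = 6.19e-06).

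Of the 2 glucose transporters, SLC2A3 rose with L-histidinol and SLC2A1 with osimertinib. SLC2A3 (GLUT3) measured 177 with vehicle, 165 with alpelisib, 145 with osimertinib and 183 with both, and 267, 245, 217 and 227 with L-histidinol. All 4 arrays with L-histidinol lay above all 4 without it. SLC2A3 rose by 0.52 ± 0.07 with L-histidinol (adjusted p = 0.000352), and its other probe sets gave 0.57 and 0.36. Its fall of 0.29 with osimertinib (adjusted p = 0.0316) was not shared by another probe set, which gave 0.04, and the mean over probe sets ended the call (adjusted p = 0.433). SLC2A1 (GLUT1) measured 276, 275, 321 and 291 for vehicle, alpelisib, osimertinib and both drugs, and 244, 252, 329 and 309 with L-histidinol. The osimertinib arrays were the highest of each set, a rise of 0.33 ± 0.09 (adjusted p = 0.0130). That call was lost with each array centred on its median (0.22, adjusted p = 0.0665), and SLC2A1's dimmer probe set gave 0.01.

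Of the phosphofructokinase subunits, PFKM and PFKP fell with osimertinib and with both drugs, and PFKL did not pass the test with any drug. PFKM, the muscle-type subunit, measured 800 with vehicle, 647 with alpelisib, 571 with osimertinib and 440 with both, and 826, 719, 716 and 602 with L-histidinol. PFKM fell by 0.35 ± 0.09 with osimertinib (adjusted p = 0.0124), a call lost without the vehicle or the osimertinib array without L-histidinol. It fell by 0.66 ± 0.09 with both drugs (adjusted p = 9.85e-05) and rose by 0.24 ± 0.06 with L-histidinol (adjusted p = 0.0192), the latter call being lost without any 1 of the 6 drug-treated arrays. PFKP, the platelet-type subunit, measured 2168, 2070, 1573 and 1580 without L-histidinol and 2003, 1901, 1373 and 1440 with it. The osimertinib and combination arrays of PFKP lay together, below the vehicle and alpelisib arrays. PFKP fell by 0.50 ± 0.05 with osimertinib and by 0.47 ± 0.05 with both drugs, and its alpelisib value was -0.07 ± 0.05 (adjusted p = 0.492). PFKL, the liver-type subunit, fell by 0.24 ± 0.06 with L-histidinol (adjusted p = 0.0120), a call lost without any 1 of the osimertinib and alpelisib arrays (adjusted p = 0.0825 to 0.0916), and its drug values were all between -0.001 and 0.007.

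The bifunctional enzymes, which make or remove the activator fructose 2,6-bisphosphate, split by isoform. PFKFB3, an isoform that mainly makes it, measured 364 with vehicle, 267 with alpelisib, 228 with osimertinib and 194 with both, and 281, 258, 215 and 192 with L-histidinol. PFKFB3 fell by 0.53 ± 0.10 with osimertinib (adjusted p = 0.00132) and by 0.73 ± 0.10 with both drugs (adjusted p = 6.64e-05). PFKFB2, the heart-type isoform, measured 90.9, 124, 121 and 153 in the same order and 71.0, 107, 100 and 114 with L-histidinol. Each drug array of PFKFB2 was above the vehicle array of its set, the reverse of PFKFB3. PFKFB2 rose by 0.52 ± 0.09 with alpelisib, 0.45 ± 0.09 with osimertinib and 0.72 ± 0.09 with both drugs (adjusted p = 6.40e-05), and fell by 0.31 ± 0.07 with L-histidinol (adjusted p = 0.00605). Its 3 dimmer probe sets gave -0.05, 0.12 and 0.32 for both drugs, and the mean over probe sets ended the calls for each single drug (0.22 with alpelisib and 0.08 with osimertinib) and for L-histidinol (-0.16). PFKFB4 fell by 0.32 ± 0.07 with L-histidinol (adjusted p = 0.00701, or 0.0564 and 0.0555 without either alpelisib array) and had -0.16 ± 0.10 with both drugs (adjusted p = 0.230).

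**Figure D3:**
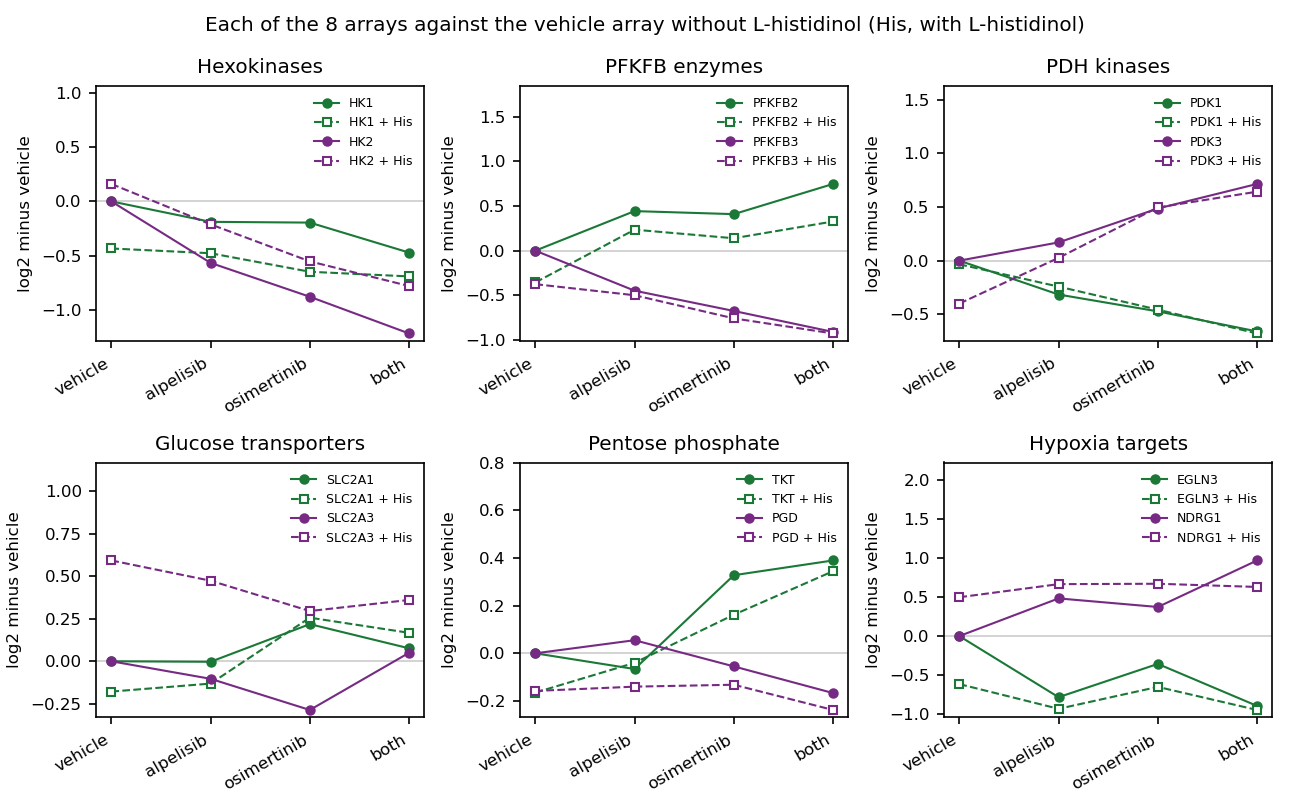
Log2 intensity minus the vehicle array without L-histidinol for 6 pairs of related genes, with 1 point per array. Filled circles are arrays without L-histidinol and open squares those with it. PDK1 descends and PDK3 ascends from vehicle to both drugs in each set, PFKFB3 descends likewise while PFKFB2 is above the vehicle of its set with every drug, and the NDRG1 lines meet and cross.

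In lower glycolysis, 6 of 9 genes fell with both drugs and all 9 had negative values. PGAM1, phosphoglycerate mutase, measured 5128 with vehicle, 4511 with alpelisib, 4434 with osimertinib and 3028 with both, and 3405, 3174, 3045 and 2431 with L-histidinol. The vehicle array with L-histidinol was below both single-drug arrays without it. PGAM1 fell by 0.62 ± 0.06 with both drugs (adjusted p = 1.04e-05) and by 0.49 ± 0.05 with L-histidinol (adjusted p = 6.08e-05), the lowest adjusted p of the 32 genes for L-histidinol. ENO1, the main enolase, measured 6779, 6291, 5875 and 4620 without L-histidinol and 6612, 5833, 5513 and 4333 with it. The 2 sets of ENO1 values ran close together, and it fell by 0.58 ± 0.05 with both drugs (adjusted p = 1.28e-06) and by 0.23 ± 0.05 with osimertinib (adjusted p = 0.00195). The suffixes _s_at, _x_at and _a_at mark probe sets that can match several transcripts or related sequences. The only unmarked ENO1 probe set, at a mean log2 of 4.62, gave -0.03 for both drugs (adjusted p = 0.930), whereas the 2 other marked sets gave -0.56 and -0.30.

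PGK1, phosphoglycerate kinase, measured 6046 with vehicle, 5340 with alpelisib, 5450 with osimertinib and 4191 with both, and 5173, 4879, 4608 and 3746 with L-histidinol. PGK1 fell by 0.50 ± 0.05 with both drugs (adjusted p = 6.74e-06) and by 0.19 ± 0.03 with L-histidinol (adjusted p = 0.00263). Some dimmer probe sets of PGK1 gave larger falls for both drugs, with -0.72, -0.83 and -0.98 at mean log2 values of 11.44, 10.33 and 9.66. The dimmest gave smaller falls, with -0.44 and -0.31 at 4.87 and 2.77. TPI1, triose phosphate isomerase, measured 4124, 3870, 4108 and 3293 without L-histidinol and 3526, 3298, 3326 and 2620 with it. The single-drug arrays of TPI1 stayed within 0.1 log2 of their vehicle and only the combination arrays stood lower, a fall of 0.38 ± 0.05 (adjusted p = 8.33e-05). L-histidinol lowered TPI1 by 0.27 ± 0.04 (adjusted p = 0.000431), a call that its unmarked probe set, at a mean log2 of 3.12, did not give (-0.17, adjusted p = 0.307).

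PKM, pyruvate kinase, measured 3010 with vehicle, 3120 with alpelisib, 3230 with osimertinib and 2689 with both, and 2870, 2418, 2827 and 1901 with L-histidinol. The L-histidinol difference of PKM was -0.07 with vehicle, -0.19 with osimertinib, -0.37 with alpelisib and -0.50 with both. PKM fell by 0.38 ± 0.09 with both drugs (adjusted p = 0.00345), a call lost without the vehicle array with L-histidinol, and by 0.28 ± 0.06 with L-histidinol (adjusted p = 0.00669). A far dimmer PKM probe set gave 0.14 for L-histidinol, and the mean over both sets ended that call (-0.07, adjusted p = 0.575). ALDOA, the main aldolase, ranged from 6534 with both drugs and L-histidinol to 8403 with vehicle, and fell by 0.24 ± 0.04 with both drugs and by 0.12 ± 0.03 with L-histidinol. The L-histidinol call of ALDOA was lost without any 1 of the osimertinib and alpelisib arrays (adjusted p = 0.0780 to 0.0846) and with the mean over its probe sets (adjusted p = 0.0762). ALDOC, a second aldolase, fell by 0.47 ± 0.07 with L-histidinol (adjusted p = 0.00100), rose by 0.32 ± 0.10 with osimertinib (adjusted p = 0.0311, or 0.127 with centring) and had -0.04 ± 0.10 with both drugs. GAPDH, often used as a reference gene, ranged from 10210 to 10910 and its largest fitted treatment difference was -0.06 ± 0.04 with both drugs (adjusted p = 0.253). ENO2, the neuronal enolase, ranged from 131 to 166 and passed in no comparison.

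Both lactate dehydrogenase subunits fell with both drugs. LDHB measured 6463 with vehicle, 5676 with alpelisib, 5224 with osimertinib and 4352 with both, and 5860, 5083, 4732 and 4236 with L-histidinol. It fell by 0.52 ± 0.05 with both drugs (adjusted p = 4.86e-06), by 0.31 with osimertinib and by 0.20 with alpelisib (adjusted p = 0.0245). The alpelisib call of LDHB was lost under quantile normalization (adjusted p = 0.0679) and with the mean of its probe sets (adjusted p = 0.0839). That call was also lost without the vehicle array without L-histidinol and without any 1 of the osimertinib and alpelisib arrays (-0.17 to -0.22). LDHA, the subunit favouring lactate formation, measured 8857, 8092, 8221 and 7156 in the same order and 8032, 7214, 7346 and 6596 with L-histidinol. The combination arrays of LDHA were the lowest of each set, and it fell by 0.30 ± 0.04 with both drugs (adjusted p = 0.000131) and by 0.15 ± 0.03 with L-histidinol (adjusted p = 0.00515, or 0.0533 and 0.0535 without either alpelisib array). For LDHB the L-histidinol fall of 0.12 (adjusted p = 0.0280) was lost without any single vehicle, osimertinib or alpelisib array.

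At pyruvate dehydrogenase the kinases PDK1 and PDK3, which inactivate the complex, moved in opposite directions. PDK1 measured 168 with vehicle, 135 with alpelisib, 121 with osimertinib and 106 with both, and 164, 142, 122 and 105 with L-histidinol. The 2 sets of PDK1 values were nearly the same, with an L-histidinol difference of 0.01 ± 0.06. PDK1 fell by 0.45 ± 0.09 with osimertinib (adjusted p = 0.00181) and by 0.65 ± 0.09 with both drugs (adjusted p = 6.53e-05). PDK3 measured 114, 129, 160 and 188 in the same order, and 86.6, 116, 161 and 179 with L-histidinol. All 4 PDK3 arrays with osimertinib or both drugs were above all 4 without osimertinib. PDK3 rose by 0.69 ± 0.11 with osimertinib (adjusted p = 0.000429) and by 0.88 ± 0.11 with both drugs (adjusted p = 3.31e-05). Of its other 4 probe sets, 2 gave 0.20 and 0.98 for both drugs and 2 gave -0.02 and -0.08, so the rise with both drugs was not seen by every probe set.

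PDP1, the phosphatase that reactivates the complex, measured 1047 with vehicle, 1299 with alpelisib, 1538 with osimertinib and 1887 with both, and 1452, 1718, 1790 and 2058 with L-histidinol. Every treatment added to PDP1, and it was the only gene of the 32 called higher with L-histidinol and with all 3 drug treatments. It rose by 0.68 ± 0.08 with both drugs (adjusted p = 2.91e-05) and by 0.31 ± 0.06 with L-histidinol (adjusted p = 0.00299), and its second probe set gave 0.72 and 0.23. PDP1's rise of 0.28 with alpelisib (adjusted p = 0.0458) was lost under 9 of 16 alternatives, among them centring (0.20, adjusted p = 0.136). It was lost without the vehicle array without L-histidinol (0.17) and without any 1 of the osimertinib and alpelisib arrays (0.21 to 0.34). The alpelisib part of that pattern therefore depended on single arrays. PDHA1, the E1 alpha subunit that these enzymes act on, measured 1824, 1620, 1617 and 1384 in the same order and 1749, 1570, 1604 and 1370 with L-histidinol. PDHA1 fell by 0.38 ± 0.05 with both drugs (adjusted p = 0.000138).

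In the pentose phosphate pathway, TKT rose and the others did not pass the test. TKT, the transketolase of the non-oxidative branch, measured 3636 with vehicle, 3473 with alpelisib, 4565 with osimertinib and 4763 with both, and 3243, 3537, 4068 and 4619 with L-histidinol. The 4 TKT arrays with osimertinib or both drugs were above all 4 others. TKT rose by 0.33 ± 0.06 with osimertinib (adjusted p = 0.00113) and by 0.45 ± 0.06 with both drugs (adjusted p = 5.80e-05), and a second probe set gave 0.43 and 0.55. Its only unmarked probe set, far dimmer at a mean log2 of 6.10, went the other way, with -0.18 and -0.32. PGD, the 6-phosphogluconate dehydrogenase of the oxidative branch, ranged from 604 to 740 and TALDO1, transaldolase, from 1861 to 2199. Their values for both drugs were -0.12 ± 0.07 and 0.13 ± 0.06.

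The hypoxia targets did not move together. EGLN3, an oxygen-sensing prolyl hydroxylase, measured 97.3 with vehicle, 56.5 with alpelisib, 76.0 with osimertinib and 52.3 with both, and 63.5, 50.9, 61.9 and 50.4 with L-histidinol. The alpelisib arrays were nearer the combination arrays than the osimertinib arrays were. EGLN3 fell by 0.55 ± 0.13 with alpelisib (adjusted p = 0.0216), a call lost without the vehicle or either alpelisib array and with the mean over its probe sets (adjusted p = 0.0708). It fell by 0.61 ± 0.13 with both drugs (adjusted p = 0.00254). Its L-histidinol difference went from -0.62 with vehicle to -0.30 with osimertinib, -0.15 with alpelisib and -0.05 with both. NDRG1, a stress and differentiation gene, measured 356, 497, 461 and 697 for vehicle, alpelisib, osimertinib and both drugs, and 503, 565, 567 and 551 with L-histidinol. Without L-histidinol NDRG1 was lowest with vehicle and highest with both drugs, while the 4 arrays with L-histidinol lay within that range and close together. The difference between both drugs and vehicle was 0.97 without L-histidinol and 0.13 with it, and the average of 0.55 ± 0.15 (adjusted p = 0.00962) was lost without the vehicle or the combination array. ANKRD37, an ankyrin repeat gene, ranged from 109 to 146 and passed in no comparison.

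Osimertinib and alpelisib were compared directly, at the 1 dose of each, with 2 arrays a drug. SLC2A1, ALDOC, PDK3 and TKT were higher with osimertinib, by 0.30, 0.48, 0.39 and 0.30, and HK2 and PFKP lower, by 0.33 and 0.43. That is 12.5% of the 32 higher and 6.25% lower. Over all genes 5.54% were higher and 5.51% lower, and 8.6% and 8.7% among those with a mean log2 of at least 5. PFKP had the lowest adjusted p of these (5.70e-04), with a SE of 0.05. The count of 6 fell to 1 of 32 without the osimertinib or the alpelisib array, to 2 without the osimertinib array with L-histidinol and to 3 without the alpelisib array with it. Over all genes, 2185 calls became 680 and 452, then 606 and 806, in the same order. Since both drugs were set against the same vehicle arrays, their separate values share that error.

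The combination was then set against the sum of the single drugs. No gene of the 32 passed the test by limma, where 0.0303% of all 19775 genes did, and 1748 of the 19775 had an unadjusted p below 0.05. At that unadjusted level 7 of the 32 stood out, 6 of them lower than the sum, namely GPI (-0.33 ± 0.11), PKM (-0.32 ± 0.12), PGAM1 (-0.29 ± 0.09), TPI1 (-0.24 ± 0.07), PGK1 (-0.21 ± 0.07) and ENO1 (-0.20 ± 0.06). SLC2A3 was higher than the sum (0.31 ± 0.13). Their adjusted p ran from 0.349 to 0.516. In TPI1, for example, the single drugs gave -0.05 and -0.09 and the combination -0.38.

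Whether the L-histidinol difference depended on the drug was tested in a model with 1 residual degree of freedom. No gene passed it by limma, 0% of 19775 for either drug, with 1653 genes at an unadjusted p below 0.05 for osimertinib and 998 for alpelisib. Among the 32 there were 3 and 4 such genes. NDRG1 was in both, with -0.36 ± 0.11 for osimertinib (adjusted p = 0.481) and -0.48 ± 0.11 for alpelisib (adjusted p = 0.819). PKM had -0.30 ± 0.08 for alpelisib (adjusted p = 0.860), where EGLN3 had 0.36 ± 0.15 and GPI -0.20 ± 0.09. PFKM (0.29 ± 0.10) and PDP1 (-0.27 ± 0.08) were the others for osimertinib. With the prior estimated from that model itself, 3 of the 32 passed for osimertinib and 2 for alpelisib, beside 896 and 278 of the 19775 genes.

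Genes next to these in metabolism were described from lists chosen by function. Over all genes, 21.4% rose and 19.2% fell with both drugs. Among those with a mean log2 of at least 5, 32% rose and 29.9% fell. With both drugs, 6 of 22 other glycolysis genes rose and 6 fell, led by SLC16A4 (1.65 ± 0.15) of the monocarboxylate transporter family and the glucose transporter family members SLC2A12 (1.53 ± 0.15) and SLC2A10 (1.38 ± 0.16). SLC2A10 had a mean log2 of only 3.55, below the median of every array, so the size of its difference is uncertain. The median of that list was -0.06. Of 7 other pyruvate dehydrogenase genes 3 rose and 3 fell, and the rises were the largest, with PDK4 at 2.38 ± 0.27, PDK2 at 1.18 ± 0.09 and the phosphatase regulator PDPR at 1.00 ± 0.09. PDK2 and PDK4 are kinases of the same complex as PDK1, and so 3 of the 4 PDK kinases rose while PDK1 fell. Of 8 other pentose phosphate genes, 4 rose and 4 fell. RPIA (-1.04 ± 0.09) and RPE (-0.71 ± 0.07), the isomerase and epimerase of the non-oxidative branch in which TKT rose, were the largest falls, followed by PRPS2 (-0.65 ± 0.08), which makes the ribose donor for nucleotides.

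Other hypoxia targets were divided as well, and the counts here stand beside the same shares of all genes, 21.4% higher and 19.2% lower. Of 24, 9 rose and 10 fell with both drugs, the largest being MXI1 at 1.34 ± 0.10, ANGPTL4 at -1.24 ± 0.11 and DDIT4 at -1.03 ± 0.09. Of 9 oxygen-sensing regulators 3 rose and 1 fell, the rises including CITED2 (0.88 ± 0.09) and EPAS1, which encodes HIF-2 alpha (0.56 ± 0.08), and the dim EGLN2, at a mean log2 of 3.33, had -0.49 ± 0.13. Of 7 glucose-responsive regulators 3 rose and 2 fell: TXNIP, which restrains glucose uptake, rose by 1.00 ± 0.14 and MYC fell by 0.62 ± 0.07. In the branches, 4 of 8 glycogen genes fell and 1 rose, led by PGM2 (-0.57 ± 0.07). Of 5 hexosamine genes 2 fell, UAP1 (-1.01 ± 0.07) and GNPNAT1 (-0.88 ± 0.07), and 2 rose. In the tricarboxylic acid cycle 6 of 10 fell and 2 rose, with IDH3A at -1.27 ± 0.10 and CS at -0.64 ± 0.07.

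With L-histidinol, 3 of 22 other glycolysis genes rose and 6 fell, against 11.4% and 9.17% of all genes, and 1 of 8 other pentose phosphate genes rose and 2 fell. Of 24 other hypoxia targets 7 rose and 4 fell, led by DDIT4 (1.55 ± 0.06), STC2 (0.95 ± 0.06) and MXI1 (0.80 ± 0.07). EPAS1 rose by 0.74 ± 0.06, one of 4 of 9 oxygen-sensing regulators that rose, with none falling. Of 7 glucose-responsive regulators 4 rose and 1 fell, the rises including ARRDC4 (0.74 ± 0.10), MYC (0.60 ± 0.05) and TXNIP (0.50 ± 0.10). Of 5 hexosamine genes 4 rose, the largest being GFPT1 (0.61 ± 0.09), the first enzyme of that pathway. Of 6 gluconeogenesis genes 2 rose, PCK2 by 1.91 ± 0.12, and among the pentose phosphate genes PRPS1 fell by 0.75 ± 0.05. Of 10 tricarboxylic acid cycle genes 5 fell and none rose, led by IDH3G (-0.63 ± 0.05) and IDH3B (-0.49 ± 0.05).

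**Figure D4:**
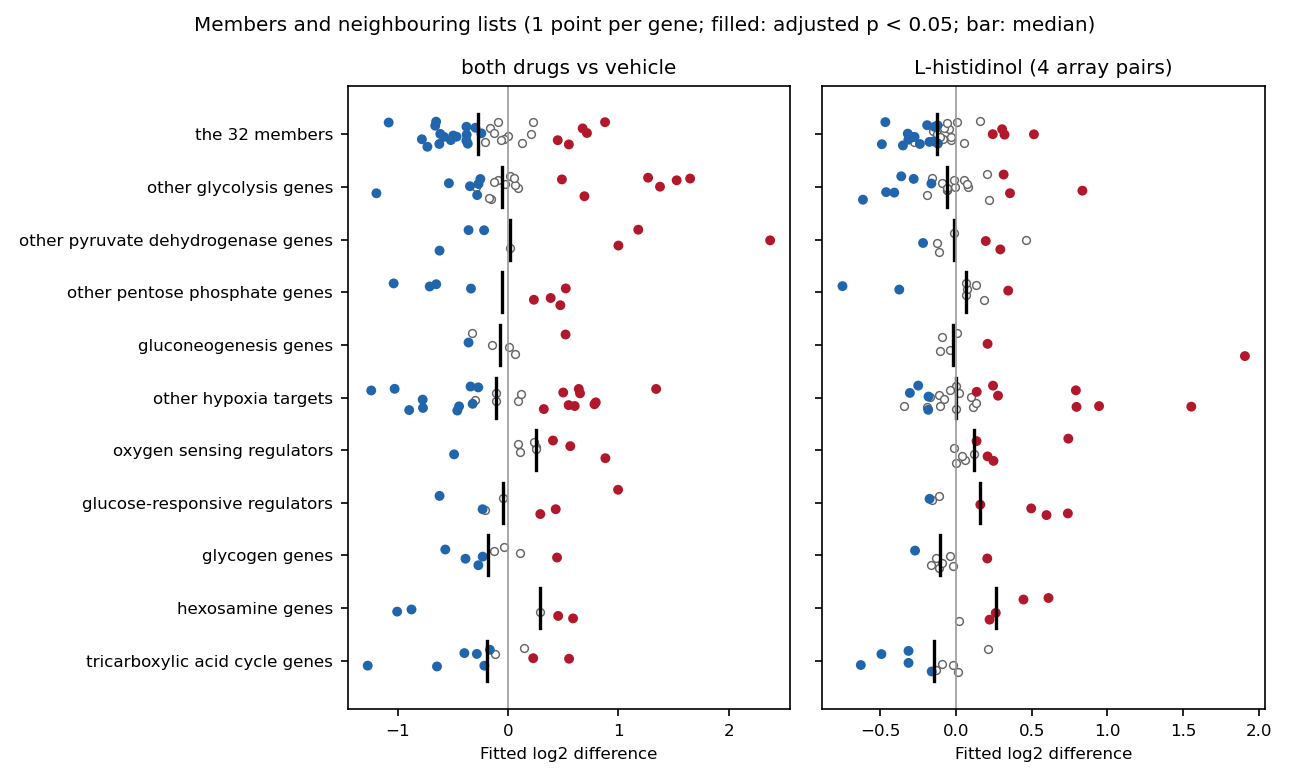
Fitted log2 difference of each gene in the 32-gene set and in 10 neighbouring lists, for both drugs against vehicle (left) and L-histidinol (right). Each point is a gene, filled points have an adjusted p below 0.05, and the bar is the list's median. The 32 genes have a median of -0.27 with both drugs and -0.12 with L-histidinol, and the PDK4 point stands at 2.38.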

How the data were processed

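Probe set intensities on a linear scale were deposited by the authors in 1 table of 8 arrays. RMA and the affy package are named in the submitters' processing notes, with versions not given in the sources used here. Here log2 was taken of each intensity. Of 54675 probe sets, 62 controls, 1801 with several gene symbols and 11721 with none in the platform annotation were left out, giving 41091 sets for 19775 genes. Of the 32 genes, 19 were read from a set marked _s_at, _x_at or _a_at, which can match several transcripts or related sequences.

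limma 3.58.1 (R 4.3.3) fitted drug treatment (4 levels) plus L-histidinol, with eBayes using an intensity trend, 3 residual degrees of freedom and 8.08 prior degrees of freedom. Interactions came from a model with all pairs of factors, 1 residual degree of freedom and the prior of the additive fit. Calls needed a Benjamini-Hochberg adjusted p below 0.05 over the 19775 genes. The limma fits were tested on simulated data for L-histidinol, osimertinib, the departure from additivity and L-histidinol by osimertinib. The other steps, among them the promoter matching, were not tested this way. The genes and lists were chosen with earlier results of these data known. All 32 genes were to be named, and from each neighbouring list at most 3 called genes with the largest change. Alternatives were the mean of a gene's probe sets, unmarked sets only, a filter at a mean log2 of 5, median centring, quantile normalization, an offset of 16, no trend, the interaction model's own prior and leaving out each array. With 1 array left out, a lone array was assumed to vary like the others.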

Additional observations from a re-analysis of the deposited data

How the results depend on the processing

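For 13 of the 32 genes, which have no unmarked probe set, the alternative with unmarked sets only could not be applied. Over all comparisons, 31 of 69 calls among the 32 genes kept their direction and their side of the threshold under every alternative that could be applied. A further 36 were lost under at least 1 alternative, and 3, all of TKT, reversed with unmarked probe sets only (1 of these, osimertinib minus alpelisib, is also among the 36), where the values were -0.18 for osimertinib (adjusted p = 0.288), -0.32 for both drugs (adjusted p = 0.0372) and -0.022 for osimertinib minus alpelisib (adjusted p = 0.949).

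The main counts of genes called were 18 for L-histidinol, 18 for osimertinib, 5 for alpelisib, 22 for both drugs and 6 for osimertinib minus alpelisib. Over all genes the calls were 4069, 6011, 2267, 8033 and 2185 in the same order. With unmarked sets only, which measure 19 of the 32, the first 4 counts were 10, 8, 3 and 12, beside 2836, 4328, 1521 and 5957 over all genes. The mean of probe sets gave 0 for alpelisib and 3 for osimertinib minus alpelisib, beside 1222 and 1464 over all genes. The filter on mean log2 gave 9 for alpelisib and median centring gave 15, beside 2591 and 2953 over all genes. Without the intensity trend, the counts were 10 for L-histidinol, 10 for osimertinib, 2 for alpelisib and 2 for osimertinib minus alpelisib. Calls over all genes also dropped there, to 2806, 5034, 779 and 1042. The interaction model's own prior gave 3 for L-histidinol by osimertinib and 2 for L-histidinol by alpelisib, beside 896 and 278 of all 19775 genes. With single arrays left out, the counts ran from 9 to 18 for L-histidinol, 10 to 20 for osimertinib, 0 to 10 for alpelisib, 22 to 23 for both drugs and 1 to 8 for osimertinib minus alpelisib. The osimertinib count was 10 without the osimertinib array and 11 without its L-histidinol partner. The alpelisib count was 1 without the alpelisib array, 3 without either osimertinib array, 8 without the vehicle array with L-histidinol and 10 without either combination array, and calls over all genes moved in the same direction.

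Every group holds only replicate 1, so that no replicate block could be fitted. The L-histidinol comparison itself was made within the 4 drug treatments. The number of arrays limits the precision, and SEs of the drug differences ran from 0.04 to 0.15 on the log2 scale.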
